A study of Mus musculus with 8 samples.

Results

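Blood and lymphatic endothelial genes and the factors that act on vessels were compared between Med1 KO and control (CON) back skin of mice. The set held 38 genes, divided into 24 genes of blood vessel endothelium, 5 genes of lymphatic endothelium and 9 angiogenic or vasoactive factors, and its probes were found by their gene symbol in the annotation of the array. Of these genes 37 had at least 1 probe, and 33 were above background on enough arrays to be tested, among 10350 tested genes in all. Angptl2 had no probe under that name.

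Endothelial cells line blood vessels, where they hold the barrier between blood and tissue, set vessel tone and recruit leukocytes. Lymphatic endothelium arises from veins under the transcription factor Prox1 and drains fluid and immune cells from the dermis. Both respond to growth factors of the VEGF family, which act on the receptors Flt1, Kdr and Flt4, and to the angiopoietins, which act on Tek. In skin the vessels lie in the dermis and around hair follicles, while the epidermis holds none and is itself a source of VEGF.

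Expression was measured in whole skin excised from the back of 8 C57BL6 mice at 10 weeks of age. Both groups carried floxed Med1 alleles (MED1 fl/fl). The 4 KO mice also carried Cre recombinase under the Krt14 promoter, which is active in keratinocytes and not in endothelium, and the 4 control mice, which the labels call WT, had no Cre. Each mouse gave 1 RNA sample and 1 bead array, so the replicates were separate animals. Whole skin holds epidermis, hair follicles, dermis and muscle beneath it, and no endothelial cells were isolated.

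The arrays held 25697 probes and detected between 14593 and 15149 of them each. Values are normalized signals on the log2 scale, changes are KO minus control with the standard error (SE) of the limma fit over 4 mice per group, and p-values are adjusted over 15120 tested probes with a threshold of 0.05. At that threshold 4837 probes were lower and 4636 higher in KO skin, so a passing change in either direction was common on these arrays. Across probes, the correlation between 2 arrays ranged from 0.991 to 0.993 within a genotype and from 0.908 to 0.916 between genotypes. Med1 itself, the targeted gene, lay at 9.05, 8.99, 8.92 and 9.10 in control mice and at 8.26, 7.80, 8.39 and 8.45 in KO mice at its brightest probe (-0.79 ± 0.14, adjusted p = 0.000649). At dimmer probes its changes were -0.69 (adjusted p = 0.00861) and -0.23 (adjusted p = 0.252). Whether these probes lie in the deleted part of Med1 was not analysed here. Control mice 1 and 3 held some signal of hair shaft and inner root sheath genes, as described beside the cell type markers below.

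Expression of most endothelial genes decreased in KO skin. Of the 33 tested genes, 28 were lower and 1 was higher in KO skin, and 4 did not pass the test. Among all tested genes 34.4% were lower and 29.4% were higher. A decrease of at least 2-fold was found for 19 of the 33 genes, against 9.89% of all tested genes. Without background correction, which leaves the changes of dim probes compressed, this count was 7 of 33, against 4.49% of all tested genes. In 28 genes every KO mouse lay below every control mouse, which was the case for 32.2% of all tested genes. The median change of the 33 genes was -1.02 on the log2 scale, against -0.04 over all tested genes. After normalization each value is relative to all RNA in the skin sample. Fewer endothelial cells, less RNA per endothelial cell and more RNA from other cells therefore cannot be told apart.

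**Figure D1:**
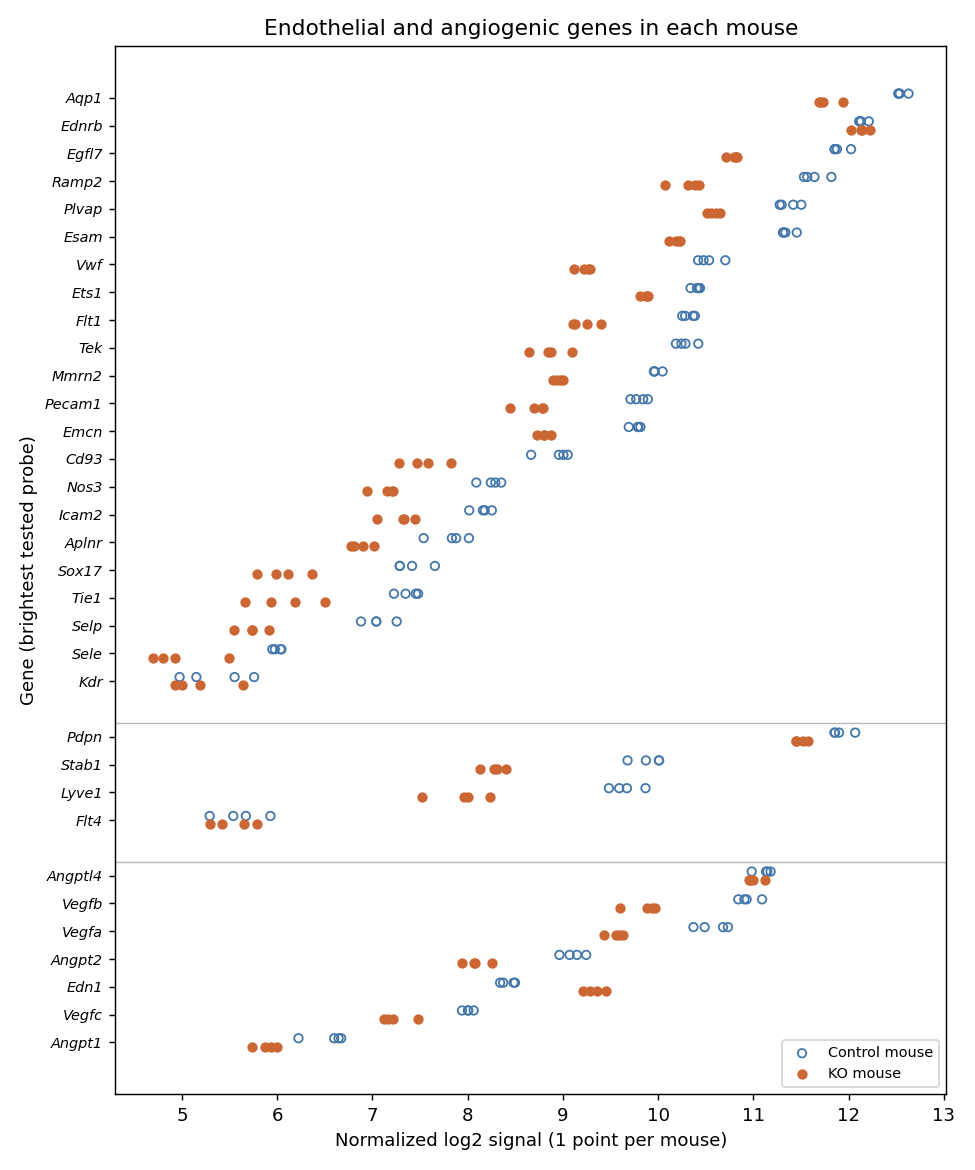
Normalized log2 signal (horizontal axis) of the 33 tested genes at their brightest probe, with 1 point per mouse, open for the 4 control mice and filled for the 4 KO mice. Genes are grouped from top to bottom as blood endothelial genes, lymphatic endothelial genes and factors. The open and filled points lie apart for 29 genes and overlap for Ednrb, Kdr, Flt4 and Angptl4, and Edn1 is the gene whose KO points lie to the right.

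Among the genes of blood vessel endothelium, 20 of 22 tested genes were lower in KO skin and none was higher. Their median change was -1.11, and 14 of the 22 fell at least 2-fold (5 of 22 without background correction, with a median of -0.75). Kdr and Ednrb did not pass the test. The 24 listed genes included Erg, which was not above background on any array, and Calcrl, which was above background on 1 control array, and neither was tested.

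Adhesion molecules of the endothelial junction and surface decreased together. Pecam1, which joins neighbouring endothelial cells and is a standard marker of them, lay at 9.71, 9.84, 9.77 and 9.89 in control mice and at 8.78, 8.79, 8.69 and 8.45 in KO mice. The groups did not overlap, and the change was -1.13 ± 0.09 (adjusted p = 4.58e-06), or 45.8% of the control level. Another probe of Pecam1 changed by -1.07. Esam, an adhesion molecule of endothelial tight junctions, lay at 11.32, 11.34, 11.46 and 11.31 in control mice and at 10.23, 10.12, 10.22 and 10.18 in KO mice. All KO mice lay more than 1 log2 unit below the lowest control mouse, and the change was -1.17 ± 0.07 (adjusted p = 4.26e-07). Emcn, a sialomucin of capillaries and veins, changed by -0.97 ± 0.07 (adjusted p = 1.34e-06). Icam2, an adhesion molecule present on resting endothelium, changed by -0.87 ± 0.10 (adjusted p = 4.14e-05).

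Genes of the selectins and of blood clotting at the vessel wall were lower too. Vwf, the clotting protein stored in endothelial granules, lay at 10.42, 10.48, 10.71 and 10.54 in control mice and at 9.28, 9.27, 9.22 and 9.12 in KO mice. The KO mice lay at 40.2% of the control level with no overlap (-1.31 ± 0.08, adjusted p = 7.41e-07). Selp, which is stored in the same granules and captures leukocytes, lay at 6.88, 7.04, 7.04 and 7.25 in control mice and at 5.91, 5.73, 5.54 and 5.74 in KO mice. Its change was -1.32 ± 0.10 (adjusted p = 3.56e-06), but this probe was dim and the change was -0.51 without background correction. Sele, the selectin of inflamed endothelium, was dim, at 5.97, 6.04, 5.95 and 6.03 in control mice and at 4.70, 4.92, 5.50 and 4.80 in KO mice. Its signal was above background on 4 control arrays and 1 KO array, so it entered the test through the control mice and its change of -1.02 ± 0.16 (adjusted p = 0.000302) is approximate, with -0.28 without background correction.

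Receptors of endothelial growth factors decreased, with Kdr near background. Tek, the angiopoietin receptor, fell from 10.19, 10.42, 10.25 and 10.29 in control mice to 9.09, 8.88, 8.65 and 8.84 in KO mice (-1.42 ± 0.10, adjusted p = 1.84e-06). Tie1, the related co-receptor of Tek, lay at 7.46, 7.23, 7.35 and 7.48 in control mice and at 6.19, 5.94, 6.50 and 5.66 in KO mice. KO mice spread over a wider range than control mice for Tie1, but all were below them (-1.30 ± 0.16, adjusted p = 7.74e-05, and -0.57 without background correction). Flt1, a VEGF receptor that also acts as a decoy, lay at 10.28, 10.37, 10.25 and 10.39 in control mice and at 9.11, 9.40, 9.13 and 9.26 in KO mice (-1.10 ± 0.08, adjusted p = 2.87e-06). Kdr, the main signalling receptor for VEGF in endothelium, lay at 5.15, 4.97, 5.55 and 5.76 in control mice and at 4.92, 4.998, 5.64 and 5.19 in KO mice. Its probe was above background on 3 control and 2 KO arrays, the groups overlapped, and its change was -0.17 ± 0.20 (adjusted p = 0.483). This probe therefore gave no usable reading of a defining endothelial gene.

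Secreted and surface proteins of endothelium followed the same course. Egfl7, a secreted protein of endothelial cells, lay at 11.88, 11.85, 11.86 and 12.03 in control mice and at 10.79, 10.83, 10.82 and 10.71 in KO mice (-1.11 ± 0.07, adjusted p = 8.24e-07). Its other probe changed by -1.26. Mmrn2, a matrix glycoprotein laid down by endothelial cells, changed by -1.03 ± 0.06 (adjusted p = 7.12e-07). Its receptor Cd93 lay at 9.01, 8.96, 9.05 and 8.67 in control mice and at 7.59, 7.46, 7.28 and 7.82 in KO mice (-1.38 ± 0.13, adjusted p = 1.11e-05), or 38.4% of the control level. Plvap, which forms the diaphragms of endothelial pores, changed by -0.79 ± 0.08 (adjusted p = 1.32e-05). The water channel Aqp1 lay at 12.53, 12.54, 12.63 and 12.52 in control mice and at 11.70, 11.69, 11.74 and 11.94 in KO mice (-0.79 ± 0.08, adjusted p = 1.55e-05). Its dimmer probes changed by -0.91 and -0.87.

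Receptors and enzymes that set vessel tone were lower with the exception of Ednrb. Nos3, the endothelial nitric oxide synthase, lay at 8.29, 8.09, 8.35 and 8.24 in control mice and at 7.21, 6.94, 7.20 and 7.15 in KO mice (-1.12 ± 0.09, adjusted p = 3.93e-06), and its dimmer probes changed by -0.87 and -0.86. Ramp2, which makes Calcrl a receptor for adrenomedullin, lay at 11.64, 11.82, 11.57 and 11.53 in control mice and at 10.08, 10.43, 10.31 and 10.39 in KO mice. The groups were far apart (-1.34 ± 0.10, adjusted p = 2.58e-06). Aplnr, the receptor for apelin, changed by -0.94 ± 0.11 (adjusted p = 4.53e-05).

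Ednrb, the endothelin receptor of endothelium that is also a receptor of melanocytes, lay at 12.13, 12.21, 12.13 and 12.11 in control mice and at 12.03, 12.23, 12.14 and 12.13 in KO mice. The groups overlapped, and the change was -0.01 ± 0.07 (adjusted p = 0.88). Its dimmer probes changed by -0.25 (adjusted p = 0.136) and 0.45 (adjusted p = 0.0863), so no probe passed the test and their signs differed. Markers of melanocytes moved the other way from the endothelial genes, with 7 of 8 higher in KO skin and a median change of 3.23. Their summed signal was between 699.6 and 831.2 in control mice and between 10408 and 11171 in KO mice. Among these markers Oca2 and Tyr were above background on 0 control arrays and Slc45a2 on 2, and they entered the test through the KO mice. The part of melanocytes in the level of Ednrb was not tested.

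The tested transcription factors of endothelium in the set decreased, by amounts whose difference depended on background correction. Sox17, a factor of arterial endothelium, lay at 7.42, 7.66, 7.29 and 7.29 in control mice and at 6.37, 6.11, 5.79 and 5.99 in KO mice (-1.35 ± 0.13, adjusted p = 1.68e-05). At a dimmer probe of Sox17 control mouse 4 lay at 6.04 with the other control mice between 6.87 and 7.19, and the change was -1.14 (adjusted p = 0.00143). Ets1, an ETS family factor of endothelium and of lymphocytes, lay at 10.41, 10.34, 10.44 and 10.43 in control mice and at 9.89, 9.88, 9.88 and 9.81 in KO mice. It fell by 0.54 ± 0.06 (adjusted p = 4.96e-05). Without background correction the changes were -0.60 for the brightest probe of Sox17, which is dimmer than that of Ets1, and -0.48 for Ets1.

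Factors of the ETS family bind a GGAA core and many endothelial genes are known to be under their control, so the stretch just upstream of the annotated start was examined in the 22 of 38 genes that RefSeq (GRCm38.p6) promoter sequences covered. The ETS motifs AGGAAG and CGGAAG, the GATA motif AGATAA and the hypoxia motif ACGTG were searched on both strands. AGGAAG was present in 13 of 28 promoters of these genes and in 29.5% of 32851 promoters of all genes. CGGAAG was present in 2 of 28 and in 13.6% of all promoters, AGATAA in 2 of 28 and in 9.99%, and ACGTG in 2 of 28 and in 16.6%. The 13 promoters with AGGAAG belonged to 12 genes, which included Emcn, Selp, Sele, Aqp1 and Stab1. They also included Angptl2, Apln, Calcrl and Erg, whose change in KO skin was not tested. Genes without any of the motifs included Tek, Kdr, Flt4 and Ednrb. A match is a description of the letters, and absence of one says only that they are not in this window. Below are 3 genes that fell and carried AGGAAG, and Edn1, the gene that rose, which held none of the searched motifs. The stretch of Edn1 does hold the shorter GGAA core, and Tek, Vegfb and Vegfc fell and held none of the searched motifs either. The printed genes were chosen after their values were seen. Each sequence is written from 5′ to 3′ on the strand of its gene, and capitals mark AGGAAG or CGGAAG on either strand (CTTCCT is AGGAAG read on the opposite strand).
Tie1 lies on the minus strand with its promoter at chr4:118489850-118490099 (GRCm38.p6), and carried CGGAAG 232 bases and AGGAAG 219 bases before the start.
Tie1: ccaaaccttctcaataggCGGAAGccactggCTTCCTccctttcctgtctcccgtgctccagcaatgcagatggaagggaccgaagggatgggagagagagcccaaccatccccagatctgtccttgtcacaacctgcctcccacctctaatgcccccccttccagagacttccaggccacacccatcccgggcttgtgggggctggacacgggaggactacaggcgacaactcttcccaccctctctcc
Flt1 lies on the minus strand with its promoter at chr5:147726012-147726261, and carried AGGAAG 129 and 53 bases before the start.
Flt1: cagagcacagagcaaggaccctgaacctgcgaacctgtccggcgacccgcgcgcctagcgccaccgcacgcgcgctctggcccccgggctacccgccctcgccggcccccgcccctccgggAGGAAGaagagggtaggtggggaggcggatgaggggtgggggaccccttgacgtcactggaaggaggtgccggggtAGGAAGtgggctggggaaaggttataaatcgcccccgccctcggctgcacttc
Egfl7 lies on the plus strand, has 3 annotated promoters and is shown at the most upstream of them, chr2:26580833-26581082, which carried AGGAAG 216, 89 and 49 bases before the start.
Egfl7: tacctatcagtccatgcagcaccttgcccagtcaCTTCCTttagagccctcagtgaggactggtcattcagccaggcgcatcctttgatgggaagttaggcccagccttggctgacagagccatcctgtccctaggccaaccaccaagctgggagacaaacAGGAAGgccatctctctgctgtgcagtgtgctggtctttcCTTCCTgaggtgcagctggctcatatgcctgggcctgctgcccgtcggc
Edn1 lies on the plus strand with its promoter at chr13:42301226-42301475 and is printed without capitals.
Edn1: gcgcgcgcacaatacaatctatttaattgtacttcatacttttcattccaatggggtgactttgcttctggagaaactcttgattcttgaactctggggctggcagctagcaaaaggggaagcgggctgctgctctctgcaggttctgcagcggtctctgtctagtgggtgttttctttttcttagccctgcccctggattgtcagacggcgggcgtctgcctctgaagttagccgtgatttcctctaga

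Lymphatic genes decreased too, but Prox1, which defines this endothelium, could not be tested. Of 5 listed genes 4 were tested and 3 were lower, with a median of -1.02. Lyve1, a hyaluronan receptor of lymphatic capillaries, lay at 9.67, 9.87, 9.59 and 9.48 in control mice and at 7.52, 7.96, 8.01 and 8.24 in KO mice. Its change of -1.72 ± 0.15 (adjusted p = 6.53e-06) left 30.3% of the control level. Stab1, a scavenger receptor of lymphatic and sinusoidal endothelium, lay at 9.87, 9.68, 10.01 and 10.01 in control mice and at 8.28, 8.40, 8.31 and 8.13 in KO mice (-1.61 ± 0.10, adjusted p = 5.6e-07).

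Pdpn, a glycoprotein of lymphatic endothelium that is also made by fibroblasts and keratinocytes, lay at 12.07, 11.86, 11.90 and 11.85 in control mice and at 11.58, 11.45, 11.45 and 11.52 in KO mice. It fell less than the other lymphatic genes that passed (-0.42 ± 0.08, adjusted p = 0.000864). Flt4, the receptor for VEGF-C on lymphatic endothelium, was dim, at 5.93, 5.54, 5.67 and 5.29 in control mice and at 5.65, 5.42, 5.79 and 5.29 in KO mice. The groups overlapped throughout, and the change was -0.07 ± 0.15 (adjusted p = 0.721). Prox1 was above background on 1 control array and on no KO array at either of its probes and was not tested.

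Lyve1 and Stab1 are also expressed by macrophages of the dermis. All 9 tested macrophage markers were lower at their brightest probe, with a median change of -0.92. The 3 tested probes of Adgre1, 1 of these markers, changed by between -0.81 and 0.23. The summed signal of the 9 markers was between 30717 and 31886 in control mice and between 16410 and 17587 in KO mice (53.9% of control). F13a1, a transglutaminase of macrophages, changed by -1.31, Folr2, a folate receptor of tissue macrophages, by -1.15, and Mrc1, their mannose receptor, by -1.01. The part of macrophages in the decrease of Lyve1 and Stab1 was not tested.

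Other lymphatic genes, from a list that holds none of the 38, also decreased, with 6 of 7 tested genes lower, 1 not passing and a median of -0.995. Ccl21a, the chemokine that draws dendritic cells into lymphatic vessels, changed by -0.995 ± 0.067 (adjusted p = 1.16e-06). Reln, a secreted glycoprotein of collecting lymphatic vessels, changed by -1.63 ± 0.08 (adjusted p = 1.13e-07), and Ackr2, a chemokine scavenger of lymphatic endothelium, by -1.54 ± 0.09 (adjusted p = 5.31e-07). Probes for Ccl21a can also capture its near-identical neighbours, so its value is that of the group of genes. Ccl21b (-0.97) belongs to that group and was counted as a separate gene among the 6.

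**Figure D2:**
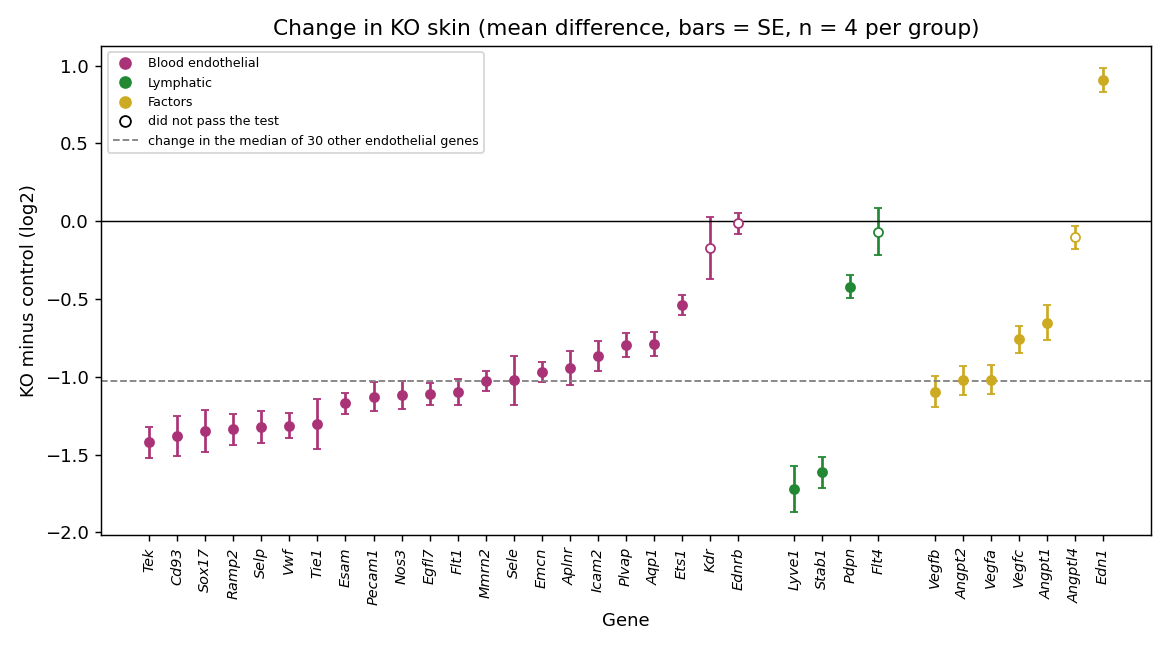
Change in KO skin (KO minus control, log2, vertical axis) of each tested gene, with bars for the SE and 4 mice per group, ordered by size within the blood endothelial genes, the lymphatic genes and the factors. Open points did not pass the test, and the dashed line marks the change of -1.02 in the median of 30 other endothelial genes. Most blood endothelial genes lie near that line, Lyve1 and Stab1 lie below it, and Edn1 lies above 0.

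Ligands of the VEGF family and the angiopoietins decreased while endothelin rose. Of 9 listed factors 8 had a probe and 7 were tested, of which 5 were lower, 1 was higher and 1 did not pass, with a median of -0.76. Apln, the ligand of Aplnr, was not above background on any array.

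Vegfa, the main growth factor of blood vessels, lay at 10.68, 10.73, 10.37 and 10.49 in control mice and at 9.43, 9.59, 9.56 and 9.63 in KO mice. At this probe it fell by 1.02 ± 0.10 (adjusted p = 1.16e-05), with no overlap. At a dimmer probe it lay between 7.90 and 8.04 in control mice and between 7.54 and 7.64 in KO mice and fell by 0.39 ± 0.06 (adjusted p = 0.000534), so both probes were lower but by different amounts. Vegfb, a ligand of Flt1, lay at 10.91, 11.09, 10.93 and 10.84 in control mice and at 9.97, 9.89, 9.93 and 9.60 in KO mice (-1.09 ± 0.10, adjusted p = 8.76e-06). Vegfc, the ligand of Flt4 that drives lymphatic growth, lay at 8.01, 8.06, 7.94 and 8.003 in control mice and at 7.12, 7.16, 7.48 and 7.21 in KO mice (-0.76 ± 0.09, adjusted p = 5.08e-05). All 3 ligands were lower in every KO mouse than in any control mouse.

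The angiopoietins, which act on Tek, were both lower. Angpt1, which activates Tek and is made by cells around the vessel, lay at 6.60, 6.64, 6.67 and 6.22 in control mice and at 5.996, 5.93, 5.87 and 5.74 in KO mice (-0.65 ± 0.11, adjusted p = 0.000654). Angpt2, which endothelial cells release and which can block Tek, lay at 9.24, 9.15, 8.96 and 9.07 in control mice and at 8.25, 8.07, 8.07 and 7.94 in KO mice (-1.02 ± 0.09, adjusted p = 8.48e-06). Angptl4, an inhibitor of lipoprotein lipase, lay at 10.98, 11.18, 11.13 and 11.15 in control mice and at 11.12, 10.998, 10.95 and 10.96 in KO mice. Those groups overlapped (-0.10 ± 0.07, adjusted p = 0.253).

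Edn1, the vasoconstrictor peptide that endothelial cells and keratinocytes make, lay at 8.48, 8.50, 8.37 and 8.34 in control mice and at 9.45, 9.29, 9.21 and 9.36 in KO mice. It was the 1 gene of the set that rose, by 0.91 ± 0.08 (adjusted p = 6.32e-06) to 187% of the control level, and every KO mouse lay above every control mouse. In the list of other endothelin, adrenomedullin and nitric oxide genes, 8 of 11 tested genes were lower, 1 was higher and 2 did not pass, with a median of -0.86. The higher gene was Edn2, which encodes another endothelin peptide (2.36 ± 0.10, adjusted p = 7.78e-08). Ptgis, the prostacyclin synthase, changed by -2.20 ± 0.11 (adjusted p = 1.95e-07), Gucy1a1, a subunit of the nitric oxide receptor of smooth muscle, by -1.61 ± 0.08 (adjusted p = 1.95e-07) and Ramp1, which forms the receptor for the peptide CGRP, by -1.47 ± 0.11 (adjusted p = 3.31e-06).

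Other genes of the VEGF and angiopoietin pathways moved in both directions. Of 16 tested genes 10 were lower, 3 were higher and 3 did not pass, with a median of -0.55. Vegfd, a further ligand of Flt4, changed by -1.15 ± 0.08 (adjusted p = 1.07e-06) and Angptl1, an angiopoietin-like secreted protein, by -1.87 ± 0.09 (adjusted p = 1.3e-07). Angptl7, of the same family, changed by -2.72 (adjusted p = 8.7e-07) and was above background on 3 KO arrays. The higher genes were Hif1a, the oxygen-regulated transcription factor (0.82 ± 0.13, adjusted p = 0.000465), Egln3, an oxygen sensor enzyme (0.59 ± 0.10, adjusted p = 0.00069), and Nrarp, a regulator of Notch signalling (0.81 ± 0.07, adjusted p = 7.12e-06).

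**Figure D3:**
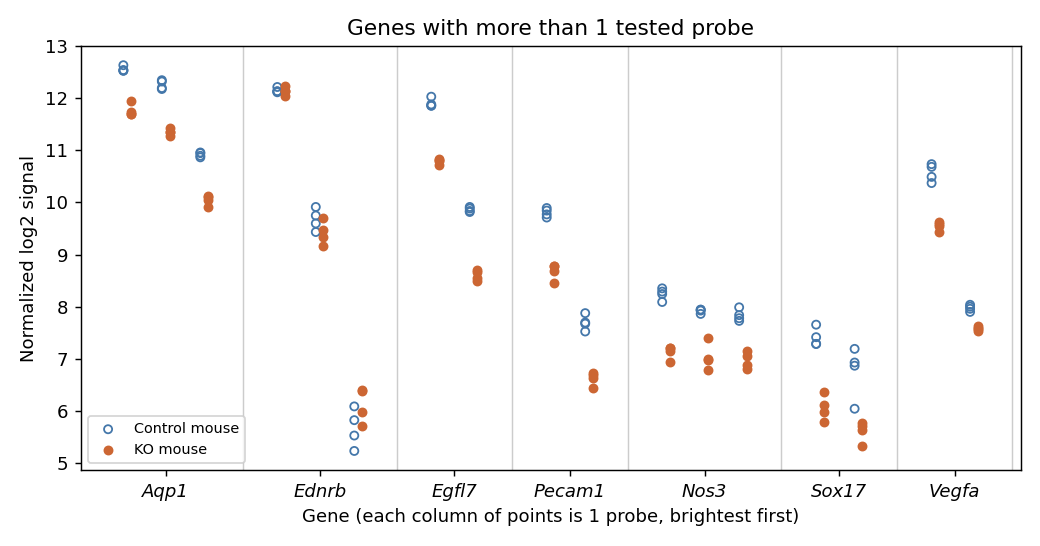
Normalized log2 signal (vertical axis) at every tested probe of the 7 genes with more than 1 tested probe, with 1 point per mouse, open for 4 control and filled for 4 KO mice, and the brightest probe first. The probes of Aqp1, Egfl7, Pecam1, Nos3, Sox17 and Vegfa were all lower in KO mice, and none of the 3 probes of Ednrb separated the groups.

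The decrease was not limited to the 38 genes. In a list of other endothelial genes, 25 of 30 tested genes were lower, 2 were higher and 3 did not pass, with a median of -0.94. Among the lower genes Ushbp1 was above background on 0 KO arrays and Bmx on 1, so they entered the test through the control mice. Ackr1, a chemokine receptor of venules, changed by -1.53 ± 0.07 (adjusted p = 9.66e-08), Robo4, a receptor of endothelial barrier function, by -1.42 ± 0.07 (adjusted p = 1.05e-07) and Lmo2, a transcriptional cofactor of blood and endothelial cells, by -1.41 ± 0.07 (adjusted p = 1.36e-07). The higher genes were Sox7, a factor related to Sox17 (0.73 ± 0.09, adjusted p = 5.45e-05), and Palmd (0.68 ± 0.07, adjusted p = 2.91e-05).

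Markers of several other cell types of the skin decreased as well. Of 13 tested pericyte and vascular smooth muscle markers 9 were lower and 4 did not pass, with a median of -0.71. The lower ones included Des (-1.72), Myh11 (-1.36) and Abcc9 (-1.96). Those that did not pass were Acta2 (-0.12), Tagln (0.23), Notch3 (-0.14) and Cspg4 (-0.19). All 9 fibroblast markers were lower, with a median of -1.02, and so were all 11 skeletal muscle markers, with a median of -1.78. The summed linear signal of the 22 blood endothelial genes was between 31699 and 33131 in control mice and between 17697 and 18483 in KO mice (55.9% of control), and that of the fibroblast markers was between 96758 and 104828 in control mice and between 58533 and 66685 in KO mice (62.7%). Summed over the lymphatic genes it was 61.1% of control, and over the factors 69.4%. Bright genes weigh most in these sums. Aqp1 (58.0% of control) and Ednrb (99.1%) were the brightest blood endothelial genes. Pdpn (74.7%) was the brightest lymphatic gene, and Angptl4 (93.1%) and Vegfb (46.8%) were the brightest factors. The sums therefore do not rank the groups by how far their genes fell. Of 4 tested adipocyte markers 2 were lower, 1 was higher and 1 did not pass, with a median of -0.18. Of 8 basal keratinocyte markers 5 were lower, 1 was higher and 2 did not pass, with a median of -0.45. The higher one, the transcription factor Trp63 (0.31), no longer passed when arrays were scaled to their medians (0.051, adjusted p = 0.73).

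Genes of growing hair rose in the same mice. All 9 tested markers of the hair shaft and inner root sheath were higher, with a median of 8.35. Their summed signal was between 133.2 and 1750 in control mice and between 179291 and 187579 in KO mice. Of these genes only Krt27 was above background on every control array. Krt35 and Krt72 were above background on 0 control arrays and Krt31 on 1. They entered the test through the KO mice and were not tested when detection on all arrays was required. Within the control group, mice 1 and 3 held most of the hair signal. The mean deviation of the 22 blood endothelial genes from their average over the 8 mice was taken in each mouse. It was 0.45 in control mouse 1 and 0.53 in control mouse 3, against 0.50 in mouse 2 and 0.53 in mouse 4 of that group. It was between -0.53 and -0.47 in KO mice. The hair signal of control mice 1 and 3 (1750 and 1528) was far below that of every KO mouse. These values therefore cannot show how the endothelial genes vary with hair growth. Hair gene signal and genotype separate the groups alike and cannot be told apart here, and the part of the other cell types in the endothelial decrease was not tested.

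**Figure D4:**
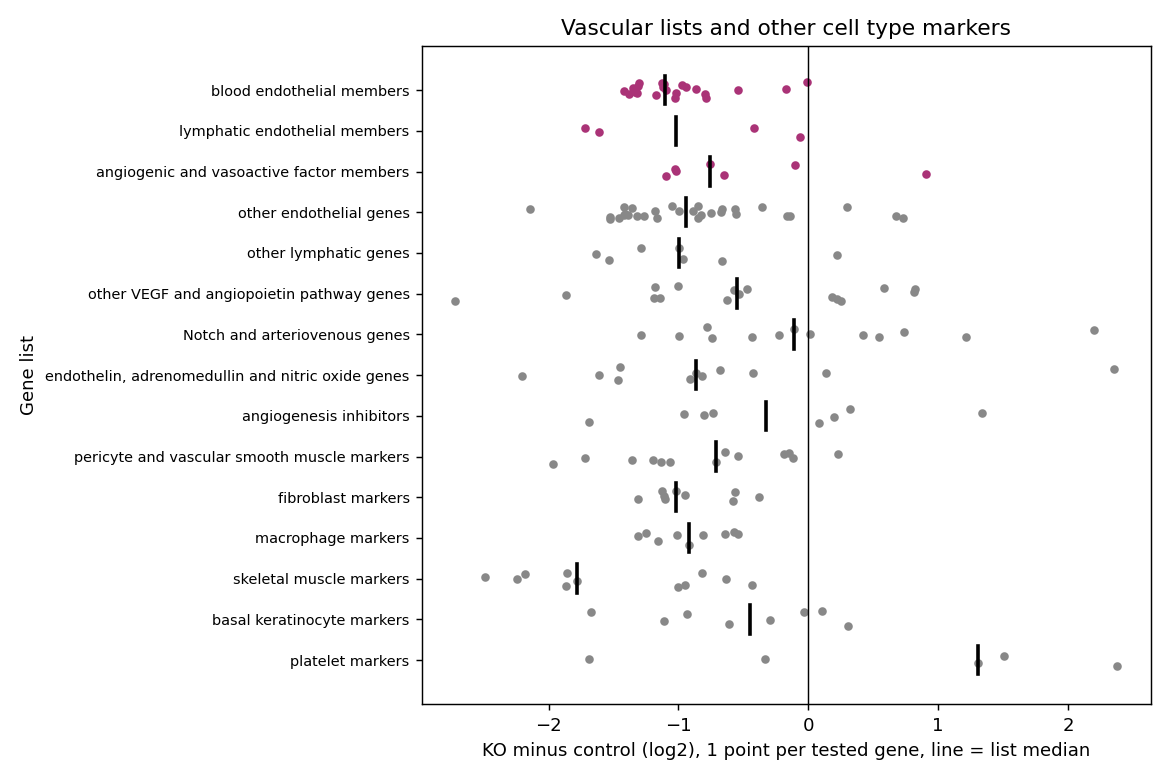
Change in KO skin (KO minus control, log2, horizontal axis) of every tested gene of the 3 groups of the set, coloured, and of the vascular and cell type lists, grey, with a line at the median of each list. The medians of the blood endothelial (-1.11), lymphatic (-1.02), other endothelial (-0.94), macrophage (-0.92) and fibroblast (-1.02) lists lie between -1.11 and -0.92, that of the pericyte and vascular smooth muscle list lies at -0.71 and that of skeletal muscle at -1.78.

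The change of each gene was also taken relative to the median of the 30 other endothelial genes in the same mouse. The p-values of this comparison measure the spread between mice and not the spread among the 30 genes. The changes of those 30 genes themselves ran from -2.14 to 0.73. Edn1 (0.91) lay above that range and the other tested genes of the set lay within it. The median of the 30 genes, as a deviation from the mean over mice, was between 0.46 and 0.58 in control mice. In KO mice it was between -0.62 and -0.43, a change of -1.02. Relative to it 11 of the 33 genes were higher, 7 were lower and 15 did not pass, whereas 83.5% of all tested genes were higher and 5.82% were lower. This comparison was added after the data were seen.

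This comparison was run in 11 settings. Beside the main setting these were the mean over the reference list, leaving out each mouse and leaving out control mice 1 and 3. Other normalizations, no background correction and other detection filters were not run for it. In all 11 settings Tek (-0.40 ± 0.13, adjusted p = 0.0146), Lyve1 (-0.70 ± 0.13, adjusted p = 4e-04) and Stab1 (-0.59 ± 0.11, adjusted p = 0.000337) were lower than this reference, though not lower than every gene in it. Ets1 (0.48 ± 0.09, adjusted p = 0.000359), Pdpn (0.60 ± 0.10, adjusted p = 0.000155), Ednrb (1.01 ± 0.09, adjusted p = 8.27e-07), Angptl4 (0.92 ± 0.11, adjusted p = 6.57e-06) and Edn1 (1.93 ± 0.11, adjusted p = 2.6e-08) were higher in all of them. Flt4 was also higher in all 11 settings (0.96) and Kdr in the 10 in which it was tested (0.85), but both probes lay near background, where changes are compressed toward 0. Pecam1, Flt1, Emcn, Egfl7, Nos3, Mmrn2, Vegfa, Vegfb and Angpt2 were among the 15 genes that did not pass, with relative changes between -0.10 and 0.05. Sox17 (-0.32), Tie1 (-0.28), Icam2 (0.16) and Esam (-0.15) did not pass either but lay farther from the reference. Of the 18 genes that passed, Vwf, Cd93, Ramp2, Selp, Plvap, Aqp1, Vegfc and Angpt1 passed in some settings only.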

How the data were processed

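Whole back skin of 8 mice was measured on Illumina mouse expression bead arrays, with 1 mouse per array. The authors deposited the mean bead intensity of each probe on a linear scale, without background subtraction or scaling, and per the file headers each has a detection p-value against negative control beads. A deposited set of normalized intensities served as an alternative after a floor of 16. The study's methods place normalization in Genome Studio without naming the procedure, and the submitters' processing notes name GenomeStudio 2011.1. No deposited columns of the authors' own comparisons were used.

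The function neqc (limma 3.58.1, R 4.3.3) was applied to the raw intensities for background correction, quantile normalization and log2 transformation. Its offset of 16 compresses changes of dim probes toward 0. Probes with a detection p below 0.05 on at least 4 of 8 arrays were tested (15120), genotype was fitted with lmFit and eBayes without covariates, with Benjamini-Hochberg adjustment over all tested probes and a threshold of 0.05. The number of arrays limits the precision. Gene symbols came from the platform annotation (23978 of 25697 probes had one) and were brought up to date by Entrez ID with RefSeq (GRCm38.p6). A gene was read at its brightest tested probe. Summed signals are on the linear scale after normalization. The fit was tested on simulated data.

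The 38 genes, the other gene lists and the tests were chosen with earlier results of these data known. All 38 genes were described, and of each other list up to 3 genes with the smallest adjusted p in each direction were named. Further genes of those lists were named where a limit concerned them. Some genes stand in more than 1 list. For the change relative to other endothelial genes, the median deviation of 30 such genes was subtracted in each mouse and the fit repeated over 10350 genes. Alternatives were no background correction, scaling to a common median, the deposited normalized values, other detection filters, another variance estimate, the mean over probes, the replicate number as a block, the methods' t-test and leaving out mice.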

Additional observations from a re-analysis of the deposited data

Results flagged for a closer look

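In each group of 4 mice the highest or lowest value of every tested gene was compared with the others. Of 66 groups, 5 held a mouse whose distance from its neighbour took up most of the range, and chance gives about 1 in 20. Control mouse 4 lay apart for Egfl7, at 12.03 with the others between 11.85 and 11.88, for Mmrn2, at 10.05 with the others at 9.96, and for Angpt1, at 6.22 with the others between 6.60 and 6.67. Aqp1 lay at 12.63 in control mouse 3, with the others between 12.52 and 12.54, and at 11.94 in KO mouse 4, with the others between 11.69 and 11.74. All of these values lay on their own group's side of the other genotype, and leaving out any 1 mouse kept the call of each of these genes.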

How the results depend on the processing

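Over 18 alternative settings the 33 genes gave 590 values, of which 584 kept their direction and their side of the threshold. The other 6 were of Flt4 and Ednrb, which never passed the test: Flt4 lay between -0.18 and 0.039 when 1 mouse was left out and at 0.13 without control mice 1 and 3, and Ednrb between -0.044 and 0.022 when 1 mouse was left out and at 0.061 with the mean over probes. Kdr and Sele were not tested without control mice 1 and 3 or when detection on all arrays was required. Without background correction 9 of the genes that passed changed by over 1.5 times less (Tie1 -0.57, Sox17 -0.60, Icam2 -0.53, Aplnr -0.52, Sele -0.28, Selp -0.51, Nos3 -0.67, Vegfc -0.45 and Angpt1 -0.23), and the order of the changes differed. No other setting moved such a gene by over 1.5 times. The count of genes lower by at least 2-fold was 7 without background correction, 17 to 19 when 1 mouse was left out and 17 to 20 in the other settings. For the change relative to other endothelial genes, the mean over that list in place of its median gave 7 genes higher and 14 lower. Leaving out 1 mouse gave 7 to 11 higher, with 7 without control mouse 4, and 4 to 8 lower, with 4 without control mouse 2, and leaving out control mice 1 and 3 gave 7 higher. The replicate numbers of the labels did not pair the mice (correlations of same-numbered deviations between -0.107 and 0.0587). With a replicate block 4726 probes were lower and 4466 higher, and 20 blood endothelial genes, 3 lymphatic genes and 5 factors were lower and 1 factor was higher, as without it. The methods' t-test passed 9636 probes unadjusted and 9002 after Benjamini-Hochberg adjustment. A block for chips was not run because the headers name none.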

Other observations

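Notch and arteriovenous genes showed no shared direction, with 6 of 13 tested genes lower, 4 higher and 3 not passing, and a median of -0.11. Nr2f2, the factor of venous identity, changed by -1.29 ± 0.13 (adjusted p = 1.61e-05), Hey1, a target of Notch in arteries, by -0.74 ± 0.07 (adjusted p = 1.63e-05) and Notch4, the Notch receptor of endothelium, by -0.78 ± 0.11 (adjusted p = 0.000154). Unc5b, a netrin receptor (2.20 ± 0.18, adjusted p = 5.07e-06), and Notch1 (0.74 ± 0.13, adjusted p = 0.000666) rose, as did Heyl (1.21, adjusted p = 0.000192), which was above background on 2 control arrays.

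Of 8 tested inhibitors of angiogenesis 4 were lower, 2 were higher and 2 did not pass, with a median of -0.33. Pf4, a chemokine of platelets and macrophages, changed by -1.69 ± 0.09 and the matrix protein Thbs2 by -0.96 ± 0.06, while its relative Thbs1 rose by 1.34 ± 0.10. Timp3 changed by -0.73 and Col18a1 by 0.32, but Timp3 no longer passed with the mean over its probes (-0.25, adjusted p = 0.151), nor Col18a1 when arrays were scaled to their medians (0.11, adjusted p = 0.428). Of 4 red cell markers 3 were lower and 1 was higher (median -0.51), and of 5 tested platelet markers 1 was lower and 3 were higher (median 1.31). The higher red cell marker, Slc4a1, and the platelet marker Gp9 were above background on 1 control array each and the platelet marker Gp5 on 0, so these 3 entered the test through the KO mice, and none of them was tested when detection on all arrays was required.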
